A study of Mus musculus with 9 samples.

Results

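The genes of the presynaptic vesicle release machinery were examined in brain RNA from mice with cerebral venous sinus thrombosis (CVST), a clot in the large veins that drain the brain. The members were 46 genes named by symbol, and all 46 were found among the 20731 genes of the count table. Male C57BL/6J mice of 8 to 10 weeks were used, and every mouse, in all groups, had a clot induced in the superior sagittal sinus with ferric chloride. The CVST group had the clot alone. In the CVST_Ligation group the deep cervical lymph nodes, which receive fluid from the meningeal lymphatic vessels, were also ligated on both sides. The CVST_Ligation_4_PBA group, called the 4-PBA group here, had the clot, the ligation and 4-phenylbutyric acid (4-PBA), a chemical chaperone used as an inhibitor of endoplasmic reticulum stress, given into the peritoneum at 100 mg/kg. The methods place the injection 30 min before modelling, whereas the series description places it after ligation, and they give solvent to control mice without saying whether mice of the CVST and CVST_Ligation groups received it. Each group had 3 mice, sampled on day 2, and no sham-operated mice were analysed here, so the values below compare forms of the model and not the model with a healthy brain.

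At a synapse, transmitter is loaded into vesicles, and the vesicles dock and are primed at a specialised patch of membrane called the active zone. Calcium entry is read by synaptotagmins, and the SNARE proteins of vesicle and plasma membrane then zip together and fuse the membranes. The spent membrane is taken back up by endocytosis and refilled. Many of the proteins come in related forms that different brain regions use in different proportions, such as the vesicular glutamate transporters encoded by Slc17a7 in cortex and Slc17a6 in thalamus and brainstem. The comparison of CVST_Ligation with CVST asks what ligation added to the clot, that of 4-PBA with CVST_Ligation asks what the drug changed, and that of 4-PBA with CVST sets the doubly handled mice against the clot alone. The 3 comparisons share groups and are not independent of each other.

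The libraries held 18100739 to 25091498 assigned counts, so that 3 counts, the level under which a gene cannot be told from absent, stood at 0.114 to 0.163 CPM, the read count scaled to a fixed library size. In every library the members were well above this, with a lowest count of 34. Values per library are CPM on the TMM scale, a normalization that keeps the bulk of genes level between libraries. Replicate 2 of CVST_Ligation and replicate 3 of CVST stood apart from the others of their groups, with correlations of log2 CPM of 0.957 to 0.959 and 0.968 to 0.970 against 0.989 and 0.983 for the remaining pair. Genes of 4000 bases or more lay 0.24 below their mean over libraries on the log2 scale, as a median over 1219 genes, in CVST replicate 3, and the 8 members of that length lay 0.41 below theirs. In the other libraries these members ran from -0.36 in 4-PBA replicate 2 and -0.35 in 4-PBA replicate 3, where all long genes stood at -0.04 and -0.05, to 0.47 in CVST_Ligation replicate 1, where they stood at 0.18. The labels call the tissue brain and the series description calls it cortical, and markers of several regions were present in unequal amounts.

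Cortical excitatory neuron markers, 12 genes led by Slc17a7, summed to 2656 to 2917 CPM in CVST, 791 to 2214 in CVST_Ligation and 887 to 1311 in the 4-PBA group. Thalamic markers, 12 genes led by Calb2, summed to 87.5 to 134, 249 to 630.1 and 434 to 801 CPM in the same order. The 16 midbrain and brainstem markers, led by Ddc, summed to 21.4 to 24.4, 174 to 395 and 219 to 235 CPM, and Lhx5 and Foxa2 among them were at 0 counts in all CVST libraries and Hoxb3 in every library but CVST_Ligation replicate 2. The 13 cerebellar markers summed to 2346 CPM in CVST_Ligation replicate 2 and to 217 to 384 CPM in the other libraries, and Gabra6, a cerebellar granule cell receptor subunit, was at 211 CPM in that library, at 5.23 CPM in CVST_Ligation replicate 3 and at 0 in the rest. Striatal markers, 12 genes led by Penk, summed to 1110.5 to 2009.7, 258 to 566 and 294 to 1386 CPM in the 3 groups, and all 12 were lower with ligation than in CVST at an unadjusted p below 0.05 in edgeR, where 4.18% of all genes were. Of these, 10 did not overlap, beside 7.21% of all genes. None passed the adjusted threshold in edgeR, the smallest adjusted p being 0.283, whereas DESeq2 passed 6, beside 1.8% of all genes. The marker lists were chosen with earlier results of these data known, so such shares are a description and not an independent test. Hypothalamic markers, 10 genes led by Pmch, summed to 9.40 to 62.4 CPM in the 6 mice without 4-PBA and to 311 to 592 CPM with it. Oligodendrocyte markers, 8 genes led by Mbp, summed to 2639 to 3499.7, 2667 to 5979.6 and 4721 to 7528 CPM. General neuron markers, 9 genes in the table led by Eno2, summed to 2950.1 to 3612, 3391 to 4624 and 3397 to 5374 CPM, and hippocampal markers, 12 genes led by Wfs1, to 396 to 655, 279.8 to 696 and 375 to 514 CPM. The part of these differences in the results that follow was not tested beyond the values given. In bulk tissue a different share of regions in the tissue sampled, fewer cells of a type and less RNA per cell cannot be told apart.

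**Figure D1:**
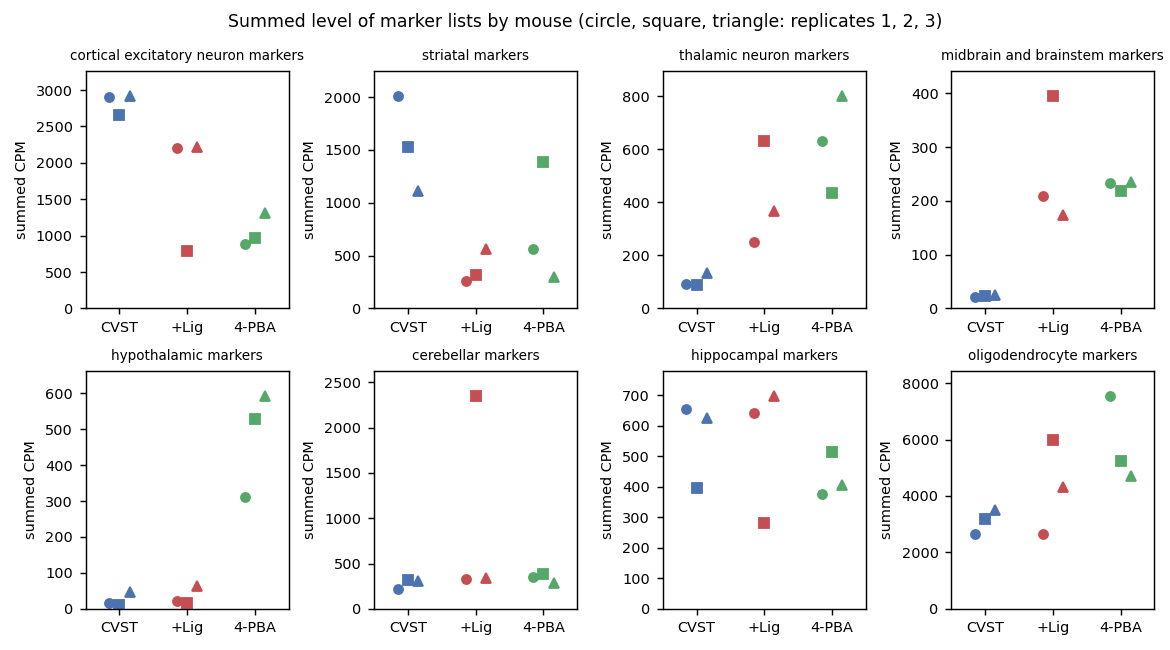
Summed CPM of 8 lists of region or cell type markers (vertical axes, each starting at 0) in each mouse, by group, with 1 point per library. The thalamic and the midbrain and brainstem sums were higher in all ligated mice than in all CVST mice, and the cerebellar sum of CVST_Ligation replicate 2, at 2346 CPM, was far above the 217 to 384 CPM of the other libraries.

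Levels between genes were compared as FPKM, which divide by gene length. Snap25, the SNARE protein of the plasma membrane that is anchored by lipid tails, was the highest member at 2108 FPKM over all 9 mice. It was followed by Cplx1 at 902 FPKM, Rab3a at 837 FPKM, Sncb at 813 FPKM, Syp at 743 FPKM, Cplx2 at 658 FPKM and Dnm1 at 601 FPKM. Within the CVST group Snap25 stood at 2572 ± 352 FPKM (SD, n = 3), clear of the next ones, whereas Sncb at 875 ± 187, Rab3a at 873 ± 135 and Cplx1 at 837 ± 308 FPKM did not differ beyond their spread. The lowest members were Unc13c at 5.56 FPKM, Unc13b at 2.82 FPKM and Syt10 at 1.68 FPKM. The length implied by the deposited values ran from 399 bases for Sncb to 15555 bases for Unc13b.

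**Figure D2:**
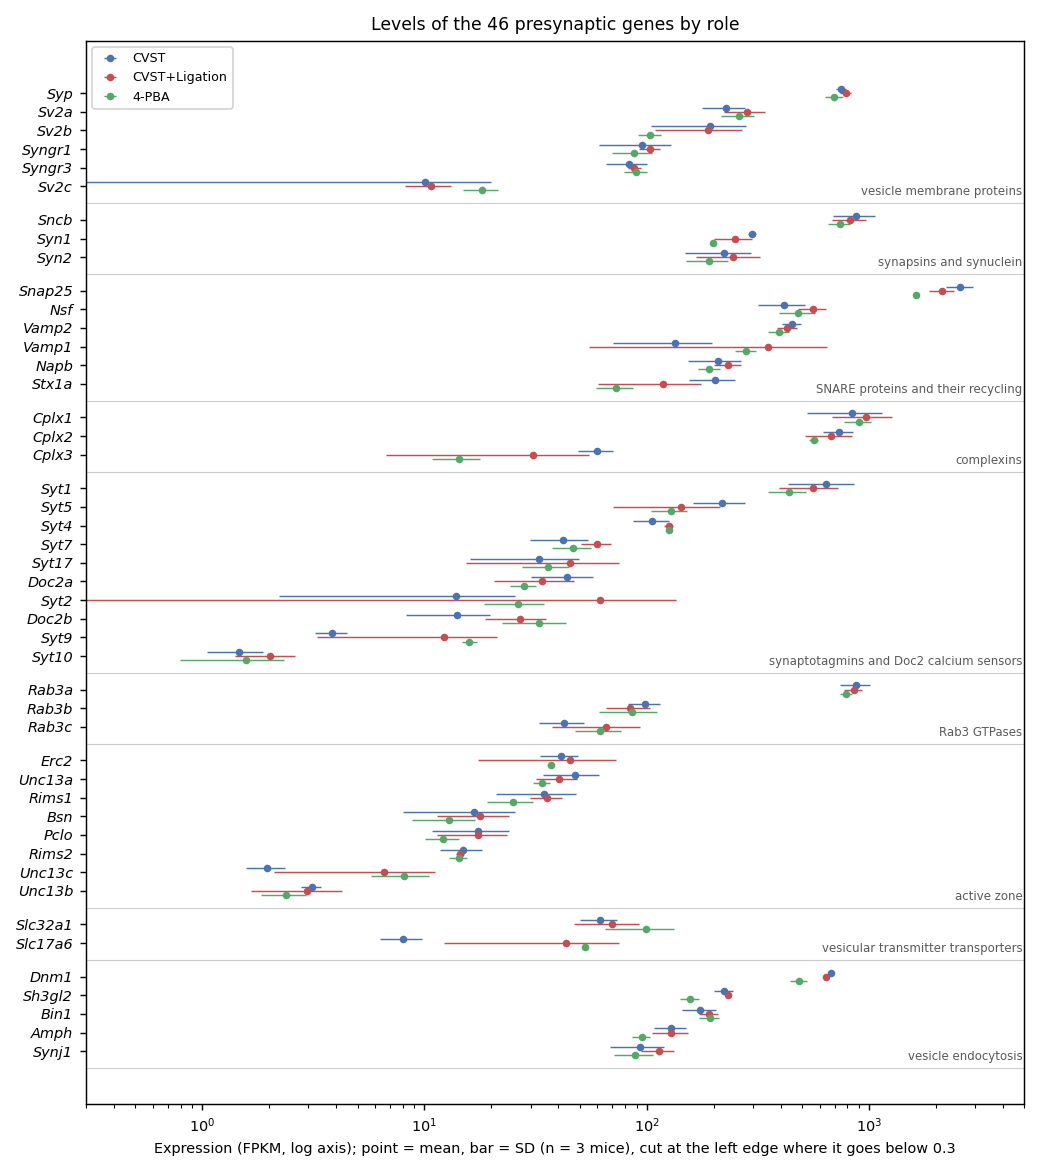
Mean level of each of the 46 genes in FPKM on a log axis, with SD over 3 mice as bars and 1 color per group, ordered by role in the vesicle cycle. Snap25 was the highest gene at 2108 FPKM and Syt10 the lowest at 1.68 FPKM, while the bars of Sv2c in CVST and of Syt2 in CVST_Ligation run off the left edge.

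The members as a group held 14585 ± 1370 CPM in CVST, 14429 ± 832 CPM in CVST_Ligation and 11582 ± 1170 CPM in the 4-PBA group (SD, n = 3). By mouse the sums were 15779.8, 14885 and 13089.6 CPM in CVST, 15049.7, 13483 and 14753 CPM in CVST_Ligation and 12888, 11229 and 10630.0 CPM with 4-PBA. All 3 mice given 4-PBA lay below all 6 others, of which CVST replicate 3 was the lowest and CVST_Ligation replicate 2 the next. The 4-PBA group had the lowest mean CPM for 28 of the 46 members, CVST for 18 and CVST_Ligation for none, while the highest mean was in CVST for 19, in CVST_Ligation for 21 and in the 4-PBA group for 6. Single libraries weighed on these orders, since 15 members were lowest of all mice in CVST replicate 3, 12 in 4-PBA replicate 3 and 10 in CVST_Ligation replicate 2.

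After ligation of the lymph nodes most members did not pass the test, and of those that did 6 were higher and 1 lower. At an unadjusted p below 0.05 in edgeR's quasi-likelihood test, 7 of 46 members (15.2%) differed between CVST_Ligation and CVST, against 9.64% of the 14746 genes tested. Vamp1, Syt2, Syt9, Doc2b, Unc13c and Slc17a6 were higher, where 5.47% of all genes were, and Snap25 was lower, where 4.18% were. No member passed a Benjamini-Hochberg adjusted p of 0.05 in edgeR, beside 0.0203% of all genes, the smallest being 0.174 for Slc17a6, whereas DESeq2 passed 3 (Syt9, Unc13c and Slc17a6) beside 1.8% of all genes. The estimate was below 0 for 19 of 46 members and for 49.7% of all genes. The median log2 difference over the members was 0.05, beside 0.00 over all genes. The groups did not overlap for 7 members, against 13.8% of all genes, with 4 higher against 6.61% and 3 lower against 7.21%.

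With 4-PBA on top of ligation, the direction was mostly downward. Against CVST_Ligation, 6 members (13.0%) passed the unadjusted threshold, against 3.23% of all genes, and all 6 (Sv2b, Syn1, Snap25, Sh3gl2, Dnm1 and Amph) were lower, where 1.42% of all genes were lower and 1.81% higher. The estimate was below 0 for 40 of 46 members and for 53% of all genes, with a median of -0.30 beside -0.02 over all genes. In edgeR no member and no gene of the table passed the adjusted threshold in this comparison, and the smallest adjusted p of a member was 1.0, whereas DESeq2 passed 2 members (Sh3gl2 and Dnm1) beside 0.15% of all genes. The groups did not overlap for 4 members, against 7.73% of all genes, with 3 lower (Snap25, Sh3gl2 and Dnm1) against 4.22% and 1 higher (Sv2c) against 3.51%. Without CVST_Ligation replicate 2 the unadjusted count was 17, beside 1497 of 14950 genes, and without CVST_Ligation replicate 1, CVST_Ligation replicate 3 or 4-PBA replicate 2 it was 3, beside 2.25, 2.47 and 1.72% of all genes.

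Against CVST, the 4-PBA group differed in 14 members (30.4%) at the unadjusted threshold, beside 15.4% of all genes. Higher were Syt9, Doc2b, Unc13c and Slc17a6, where 8.07% of all genes were higher, and lower were Sv2b, Syn1, Snap25, Stx1a, Cplx2, Cplx3, Unc13a, Sh3gl2, Dnm1 and Amph, where 7.33% were. The estimate was below 0 for 28 members and for 51.1% of all genes. The median over the members was -0.21 on the log2 scale and that over all genes -0.01. No member passed the adjusted threshold in edgeR, beside 0.122% of all genes, the smallest adjusted p being 0.0518 for Slc17a6, whereas DESeq2 passed 10 beside 5.82% of all genes. The groups did not overlap for 14 members, against 23.7% of all genes, with 10 lower against 11.5% and 4 higher against 12.3%. Without both libraries that stood apart, 27 members passed the unadjusted threshold beside 22.1% of all genes, 26 did so for 4-PBA against CVST_Ligation beside 13.7%, and 10 did so for ligation beside 12.4%.

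**Figure D3:**
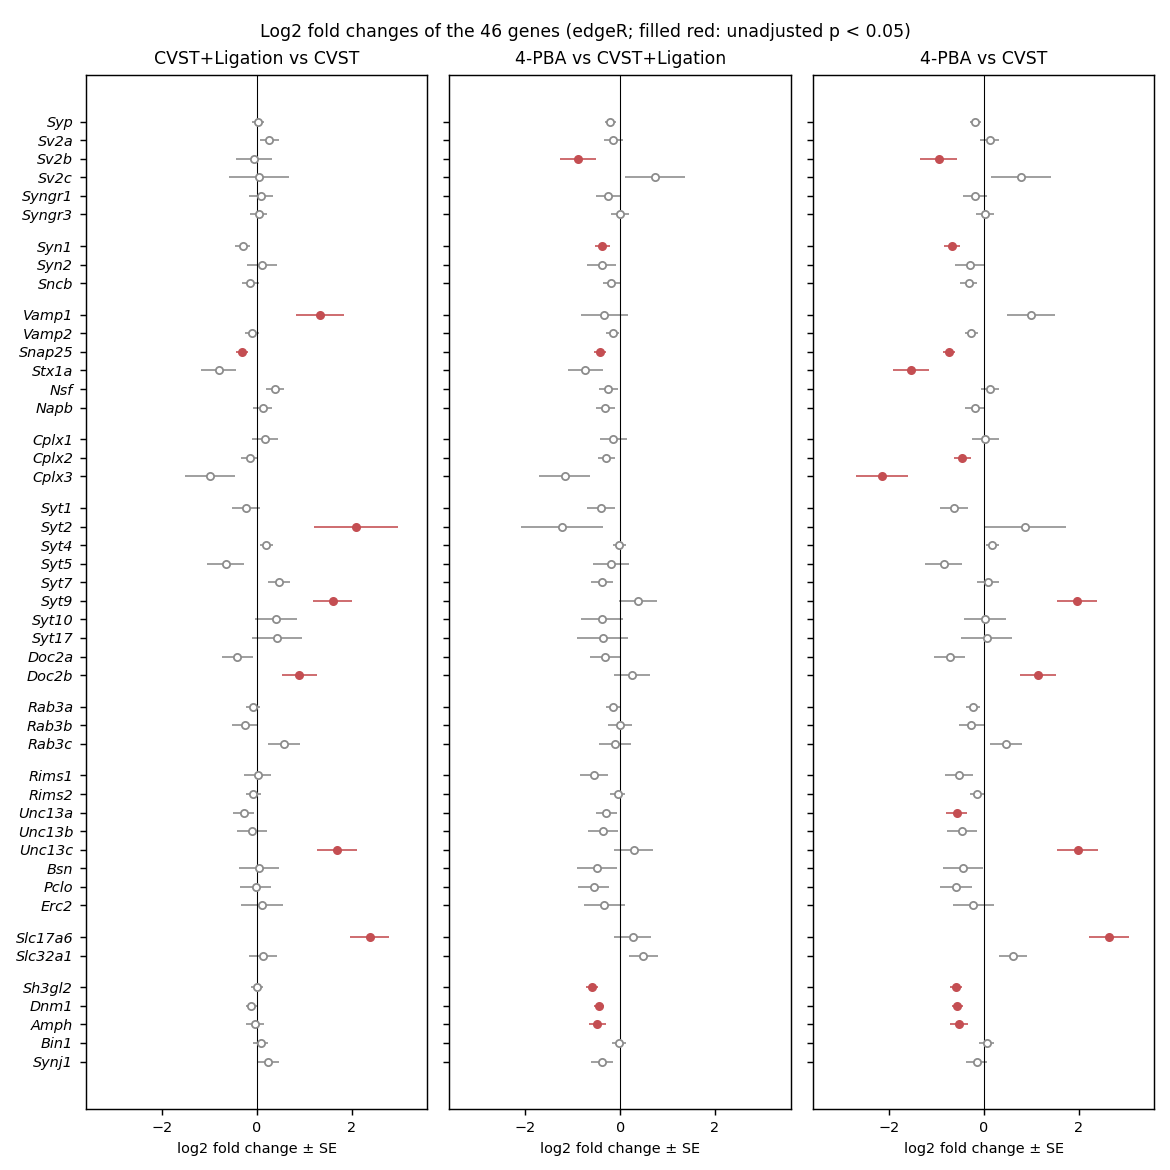
Log2 fold changes of the 46 genes with their standard errors (horizontal axes) from edgeR in the 3 comparisons, ordered by role. Filled red points passed an unadjusted p below 0.05: 7 for ligation against CVST, 6 for 4-PBA against ligation and 14 for 4-PBA against CVST, and in the middle panel all filled points lie left of 0.

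The sequences before the RefSeq start of 5 members are shown because these members carry the findings in both directions, Slc17a6 and Syt9 being higher in ligated mice and Syn1, Dnm1 and Sh3gl2 lower in those given 4-PBA. They were chosen after the values were seen. Each is the 250 bases upstream of the start on the gene's strand, 5′ to 3′, in build GRCm38.p6, and capitals mark matches on either strand to the GC box GGGCGG, the cAMP response element half-site TGACG and CAGCACC, the left part of the RE1 element that binds the neuronal repressor REST. Slc17a6 has 2 listed starts, and the window at chr7:51621580-51621829 (plus strand) lies upstream of both. The others are Syt9 at chr7:107370540-107370789 (plus strand), Syn1 at chrX:20920919-20921168 (minus strand), Dnm1 at chr2:32353330-32353579 (minus strand) and Sh3gl2 at chr4:85205206-85205455 (plus strand). For these others a stretch just after the start was found in a GENCODE reference transcript of the gene, but for the Slc17a6 window it was not.
Slc17a6: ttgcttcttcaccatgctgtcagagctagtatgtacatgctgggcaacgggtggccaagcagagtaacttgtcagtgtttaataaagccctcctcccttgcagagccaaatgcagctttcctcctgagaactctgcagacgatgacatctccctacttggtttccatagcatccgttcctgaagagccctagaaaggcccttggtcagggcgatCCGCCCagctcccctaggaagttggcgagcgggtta
Syt9: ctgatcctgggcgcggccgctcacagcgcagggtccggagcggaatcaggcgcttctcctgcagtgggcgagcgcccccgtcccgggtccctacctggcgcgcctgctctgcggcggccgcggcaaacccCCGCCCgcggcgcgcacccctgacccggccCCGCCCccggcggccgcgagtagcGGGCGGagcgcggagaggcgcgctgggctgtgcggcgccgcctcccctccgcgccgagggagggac
Syn1: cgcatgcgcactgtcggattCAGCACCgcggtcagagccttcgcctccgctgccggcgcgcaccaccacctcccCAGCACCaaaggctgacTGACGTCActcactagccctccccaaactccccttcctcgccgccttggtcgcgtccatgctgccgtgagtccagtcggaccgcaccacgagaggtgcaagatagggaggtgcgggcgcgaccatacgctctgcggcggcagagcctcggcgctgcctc
Dnm1: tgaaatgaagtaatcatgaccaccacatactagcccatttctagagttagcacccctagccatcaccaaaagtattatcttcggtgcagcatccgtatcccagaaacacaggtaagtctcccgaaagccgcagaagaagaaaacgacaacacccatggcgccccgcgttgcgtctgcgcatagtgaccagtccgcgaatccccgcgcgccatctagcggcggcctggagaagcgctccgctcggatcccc
Sh3gl2: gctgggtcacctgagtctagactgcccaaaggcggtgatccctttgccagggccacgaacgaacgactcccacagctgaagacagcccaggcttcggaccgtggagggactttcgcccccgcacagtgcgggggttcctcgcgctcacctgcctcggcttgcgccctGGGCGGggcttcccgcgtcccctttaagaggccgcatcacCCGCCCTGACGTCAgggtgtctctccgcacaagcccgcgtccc
The Slc17a6 window held 1 GC box and that of Syt9 held 3, in a sequence of 80.4% G and C. Syn1 held 2 copies of CAGCACC and a pair of half-sites that overlap as a palindrome, Sh3gl2 held 2 GC boxes beside such a palindrome, and Dnm1 held none of the 3. Of the 46 members 35 had a RefSeq window in the promoter table, with 44 windows in all. A GC box was in 56.8% of these and in 32.7% of the 32851 windows of all genes, the half-site in 25.0% and 17.8%, and CAGCACC in 6.82% and 5.73%. A match describes letters only and is no evidence of binding.

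Among the 6 vesicle membrane proteins, Sv2b was the 1 member that passed in any comparison. The protein belongs to a family of transporter-like vesicle glycoproteins that is needed for normal priming. Sv2b stood at 579, 406 and 219.8 CPM in CVST, at 539, 209.5 and 409 CPM in CVST_Ligation and at 234, 210.4 and 179.7 CPM in the 4-PBA group. The mice given 4-PBA lay close together at the low end, but CVST replicate 3 and CVST_Ligation replicate 2, the libraries that stood apart, fell within their range, so the groups overlapped. The log2 difference of 4-PBA from CVST_Ligation was -0.89 (SE 0.38), with an unadjusted p of 0.0425 and an adjusted p of 1.0 in edgeR, and it passed in 3 of the 9 fits that left out a library, those without CVST replicate 1, CVST replicate 3 or CVST_Ligation replicate 2. Without CVST_Ligation replicate 1 it was -0.56. From CVST it was -0.95, with an edgeR adjusted p of 0.273, and -0.58 without CVST replicate 1. This passed the unadjusted threshold in 4 of the 9 fits, and not without CVST replicate 1 or 2 or any mouse given 4-PBA. Neither Sv2b difference passed it in limma. The related Sv2a was at 623 ± 113 CPM in CVST_Ligation and 564 ± 96.4 CPM with 4-PBA, and Sv2c, the scarce form, at 23.3 ± 4.80 and 38.9 ± 7.43 CPM, neither of which passed. Syp (synaptophysin), the classic vesicle marker, was at 801 ± 50.5, 820.0 ± 69.2 and 711 ± 72 CPM in the 3 groups.

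Synapsins tether vesicles to the cytoskeleton and to each other and so hold the reserve pool. Syn1 stood at 681, 619 and 649.5 CPM in CVST, at 560.2, 399.5 and 629 CPM in CVST_Ligation and at 403, 422 and 402 CPM with 4-PBA. The 4-PBA mice were below all CVST mice and almost equal to each other, while CVST_Ligation replicate 2 lay slightly below them and the other ligated mice above. Syn1 was lower with 4-PBA than in CVST by a log2 difference of -0.67 (SE 0.16), with an adjusted p of 0.102 in edgeR. Against CVST_Ligation the log2 difference was -0.37 (SE 0.16) with an unadjusted p of 0.0425 and an edgeR adjusted p of 1.0, and it passed only in the fit without CVST_Ligation replicate 2 among the 9 that left out a library. Syn2 at 341 ± 78.5 CPM and Sncb (beta-synuclein) at 288 ± 27.6 CPM in the 4-PBA group had log2 differences of -0.29 and -0.31 from CVST and did not pass.

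The SNARE proteins fuse the vesicle to the plasma membrane, and Nsf with its partner Napb takes the spent complexes apart. Snap25 was the most abundant of them and stood at 1922, 2164 and 1731 CPM in CVST, at 1363, 1718 and 1612 CPM in CVST_Ligation and at 1128, 1214 and 1156 CPM with 4-PBA. The 3 groups formed descending steps that did not overlap, although the highest ligated mouse came close to the lowest CVST mouse. Snap25 was lower with ligation by a log2 difference of -0.31 (SE 0.13), with an unadjusted p of 0.0419 and an adjusted p of 0.502 in edgeR, and this passed in 2 of 9 fits that left out a library, those without CVST replicate 3 or CVST_Ligation replicate 2, and ran down to -0.22 in the others. With 4-PBA it was lower than with ligation alone by -0.42 (SE 0.13), with an unadjusted p of 0.00979 and an edgeR adjusted p of 1.0, and this passed in all 9. Against CVST the log2 difference was -0.73 (SE 0.13) with an edgeR adjusted p of 0.0539.

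Stx1a (syntaxin 1A), the partner of Snap25 in the plasma membrane, stood at 168, 244 and 177 CPM in CVST, at 146, 47.2 and 144 CPM in CVST_Ligation and at 76.1, 74.9 and 51.6 CPM with 4-PBA. All 6 ligated mice lay below all CVST mice, and CVST_Ligation replicate 2 lay below all mice given 4-PBA. The log2 difference of the 4-PBA group from CVST was -1.54 (SE 0.38), or 2.90-fold lower, with an adjusted p of 0.110 in edgeR, and that of CVST_Ligation was -0.80 (SE 0.37) and did not pass. Vamp1 and Vamp2 are the SNARE proteins of the vesicle, Vamp1 being the form used more in brainstem and spinal cord. Vamp1 stood at 63.7, 112 and 47.7 CPM in CVST, at 103, 366 and 95.6 CPM in CVST_Ligation and at 162, 133 and 152 CPM with 4-PBA. CVST_Ligation replicate 2, the library with the high cerebellar and brainstem markers, was the highest of all, and the other ligated mice overlapped with CVST. The log2 difference for ligation was 1.34 (SE 0.51), with an unadjusted p of 0.0252 and an edgeR adjusted p of 0.434, but 0.42 (SE 0.30) without that library, which did not pass, nor did the fits without CVST replicate 1 or CVST replicate 3. Vamp2 stayed at 234 ± 19.7, 219 ± 26.2 and 196 ± 22.8 CPM, Nsf at 954 ± 222, 1246 ± 166 and 1049 ± 187 CPM and Napb at 191 ± 49.2, 208 ± 32.3 and 167 ± 20.8 CPM, and none of them passed.

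Complexins clamp the half-assembled SNARE complex until calcium arrives. Cplx2, the main form of forebrain excitatory neurons, stood at 325, 326 and 255 CPM in CVST, at 341, 205 and 269 CPM in CVST_Ligation and at 210.4, 231 and 223 CPM with 4-PBA. Mice given 4-PBA were below all CVST mice, and the ligated mice covered the whole range. The log2 difference of 4-PBA from CVST was -0.45 (SE 0.18), with an unadjusted p of 0.0359 and an edgeR adjusted p of 0.283, and it passed in 4 of 9 fits that left out a library and in none that left out CVST replicate 1, CVST replicate 2 or a mouse given 4-PBA. Cplx3, known from ribbon synapses of the retina and from deep cortical layers, stood at 23, 31.8 and 32.5 CPM in CVST, at 12.9, 4.02 and 27.4 CPM in CVST_Ligation and at 6.99, 4.92 and 7.85 CPM with 4-PBA. The 4-PBA mice were all below the CVST mice, and the ligated mice were spread between a value below every 4-PBA mouse in replicate 2 and a value within the CVST range in replicate 3. Cplx3 was 4.42-fold lower with 4-PBA than in CVST, a log2 difference of -2.14 (SE 0.55) with an edgeR adjusted p of 0.118. Cplx1, at 343 ± 119, 389 ± 107 and 353 ± 52.4 CPM, did not pass in any comparison. The cortical excitatory markers, whose sums were 2899, 2656 and 2917 CPM in CVST, 2210.0, 791 and 2214 CPM in CVST_Ligation and 887, 965 and 1311 CPM with 4-PBA, were low in the same mice as Cplx3 and Stx1a, and their part in these results was not tested.

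Of the 10 calcium sensors, Syt1, the fast sensor of forebrain synapses, was the most abundant and did not pass, at 828 ± 259, 711 ± 223 and 539 ± 108 CPM in the 3 groups. Syt9, another fast sensor, found in fewer neurons, stood at 6.80, 4.79 and 5.91 CPM in CVST, at 11.2, 32.2 and 9.89 CPM in CVST_Ligation and at 24, 24.4 and 20.4 CPM with 4-PBA. All ligated mice lay above all CVST mice, with CVST_Ligation replicate 2 the highest. Syt9 was higher with ligation by a log2 difference of 1.60 (SE 0.42), with an unadjusted p of 0.00350 and an edgeR adjusted p of 0.299, and higher with 4-PBA than in CVST by 1.97 (SE 0.42), with an edgeR adjusted p of 0.0730. Both passed the unadjusted threshold in all 9 fits that left out a library, and without CVST_Ligation replicate 2 and CVST replicate 3 the ligation difference was 0.84.

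Syt2, the fast sensor of brainstem, spinal cord and cerebellar synapses, stood at 16.5, 33.1 and 3.80 CPM in CVST, at 26.2, 181 and 22.1 CPM in CVST_Ligation and at 44, 29.6 and 24.7 CPM with 4-PBA. CVST_Ligation replicate 2 was the highest by far and CVST replicate 3 the lowest, while the other ligated mice lay within the CVST range. The log2 difference for ligation was 2.10 (SE 0.89), with an unadjusted p of 0.0420 and an edgeR adjusted p of 0.502, and it was 0.43 (SE 0.65) without CVST_Ligation replicate 2 and -0.06 without both libraries that stood apart. It passed in 3 of 9 fits that left out a library, those without CVST replicate 2, CVST_Ligation replicate 1 or CVST_Ligation replicate 3. Doc2b, a high-affinity sensor linked to spontaneous and asynchronous release, stood at 16.7, 10.8 and 26.3 CPM in CVST, at 43.8, 22.7 and 33.7 CPM in CVST_Ligation and at 49.96, 44.6 and 24.7 CPM with 4-PBA. Its groups overlapped through CVST replicate 3, which was above the lowest mouse of each ligated group. The log2 difference was 0.90 (SE 0.38) for ligation, with an edgeR adjusted p of 0.493, and 1.15 (SE 0.38) for 4-PBA against CVST, with an edgeR adjusted p of 0.194. The first passed the unadjusted threshold in 5 of 9 fits that left out a library, with 0.64 without CVST replicate 2, and not without CVST replicate 1 or 2 or CVST_Ligation replicate 1 or 3. The second passed in all 9. Syt10, the scarcest member, was at 2.29, 1.69 and 3.15 CPM in CVST, at 4.09, 3.09 and 2.24 CPM in CVST_Ligation and at 2.22, 3.74 and 1.30 CPM with 4-PBA, in overlapping groups, and Syt4, Syt5, Syt7, Syt17 and Doc2a passed in no comparison either.

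None of the 3 Rab3 GTPases, which ride on vesicles and recruit the active zone, passed in any comparison. Rab3a stood at 593 ± 100.5, 561 ± 47.3 and 508 ± 37.1 CPM, Rab3b at 68.9 ± 12.1, 57.8 ± 14 and 57.7 ± 17.3 CPM and Rab3c at 31.2 ± 7.60, 46.5 ± 20.1 and 43 ± 10.3 CPM in CVST, CVST_Ligation and the 4-PBA group.

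The active zone holds the scaffolds Bsn (bassoon), Pclo (piccolo), Rims1, Rims2 and Erc2 and the Munc13 priming factors, encoded by Unc13a, Unc13b and Unc13c. Unc13a, the main form of cortical excitatory synapses, stood at 310.1, 272 and 176 CPM in CVST, at 256, 166 and 206 CPM in CVST_Ligation and at 188, 165 and 159.6 CPM with 4-PBA. Mice given 4-PBA were at the low end, and CVST replicate 3 was within their range. The log2 difference from CVST was -0.56 (SE 0.22), with an unadjusted p of 0.0304 and an edgeR adjusted p of 0.264, and it did not pass without CVST replicate 1 or 2 or 4-PBA replicate 2 or 3. Unc13c, the form concentrated in the cerebellum, stood at 16.3, 12.5 and 11.3 CPM in CVST, at 23.5, 75.8 and 30.5 CPM in CVST_Ligation and at 62.9, 61.3 and 34.2 CPM with 4-PBA. All 6 ligated mice lay above all CVST mice, opposite in direction to Unc13a, and CVST_Ligation replicate 2 was the highest. The log2 difference was 1.69 (SE 0.43) for ligation, with an unadjusted p of 0.00300 and an edgeR adjusted p of 0.294, and 1.98 (SE 0.43) for 4-PBA against CVST, with an edgeR adjusted p of 0.0792. Both passed the unadjusted threshold in every fit that left out 1 library, and without both libraries that stood apart the ligation difference was 0.88. The scaffolds did not pass. The large ones were low in CVST replicate 3, the library with fewer counts in long genes, but Pclo was lower still in CVST_Ligation replicate 2 and 4-PBA replicate 3. Bsn was at 277, 245 and 83.9 CPM in CVST, at 296, 158 and 174 CPM in CVST_Ligation and at 203, 131 and 113 CPM with 4-PBA. Pclo was at 372, 272 and 171 CPM in CVST, at 334, 155 and 312 CPM in CVST_Ligation and at 217, 173 and 154 CPM with 4-PBA.

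**Figure D4:**
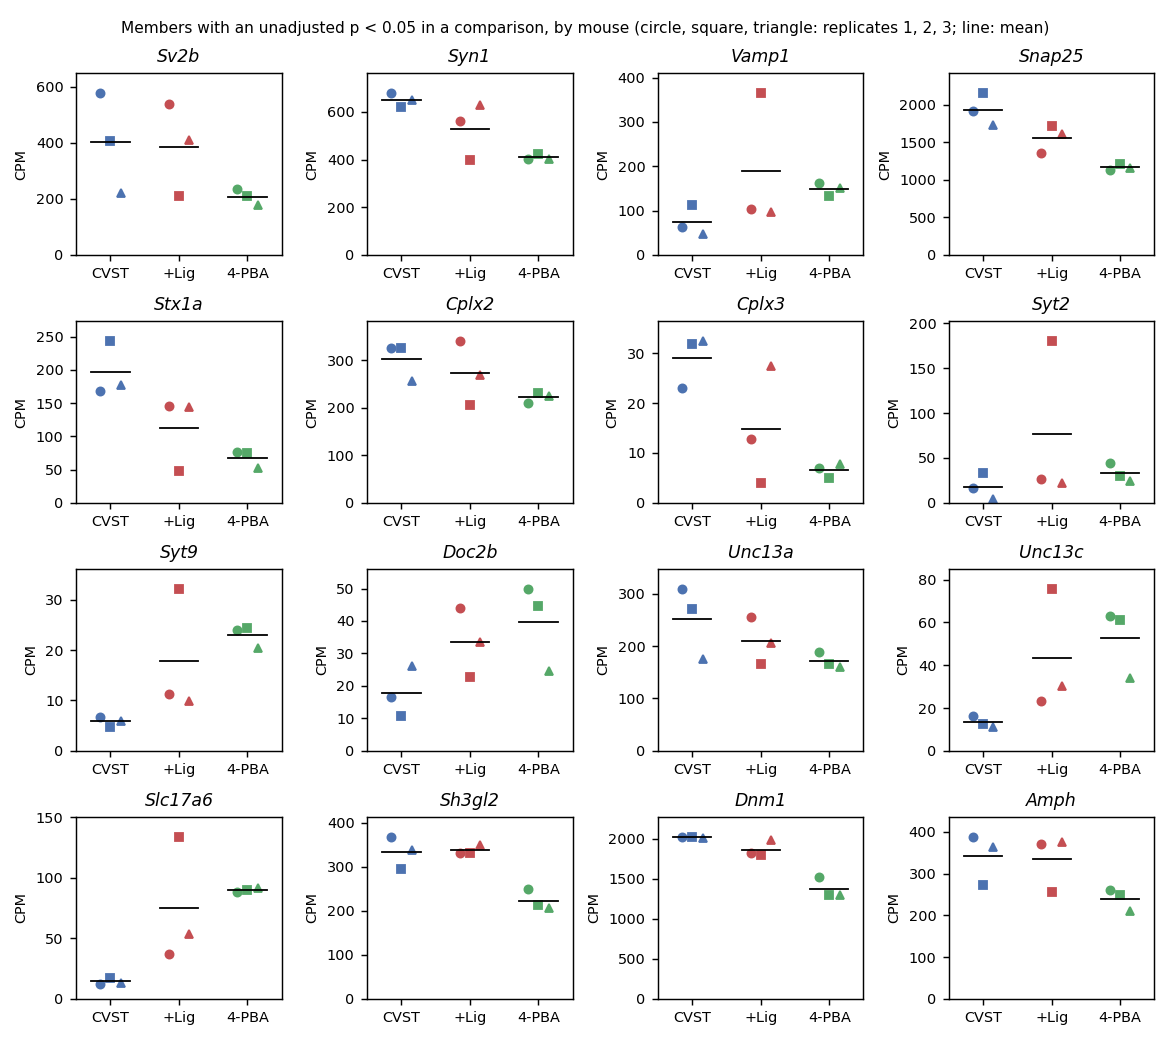
CPM of the 16 members that passed an unadjusted p below 0.05 in at least 1 comparison, with 1 point per mouse, black lines for the group means and vertical axes that start at 0. Snap25 steps down from CVST through ligation to 4-PBA without overlap, Slc17a6 and Unc13c are above the CVST mice in all 6 ligated mice, and Vamp1 and Syt2 are highest in CVST_Ligation replicate 2 by a wide margin.

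Transporters in the vesicle membrane load it with transmitter. Slc17a6 (VGLUT2), the glutamate loader of thalamic, hypothalamic and brainstem neurons, stood at 12.3, 17.6 and 13.2 CPM in CVST, at 37, 134 and 53.7 CPM in CVST_Ligation and at 88.5, 90.1 and 91.7 CPM with 4-PBA. All 6 ligated mice lay above all CVST mice, CVST_Ligation replicate 2 was the highest, and the 4-PBA mice were nearly equal to each other. Slc17a6 was 5.21-fold higher with ligation, a log2 difference of 2.38 (SE 0.42) with an unadjusted p of 0.000225 and an adjusted p of 0.174 in edgeR. With 4-PBA it was 6.27-fold higher than in CVST, a log2 difference of 2.65 (SE 0.42) with an unadjusted p of 0.000106 and an edgeR adjusted p of 0.0518. Without CVST_Ligation replicate 2 the ligation difference was 1.66 and passed the adjusted threshold in edgeR, with an adjusted p of 0.0454, while the other 8 fits that left out a library gave none below 0.05 for this difference. The difference of the 4-PBA group from CVST passed the adjusted threshold in edgeR in 2 of the 9 such fits, with an adjusted p of 0.000770 without CVST_Ligation replicate 2 and 0.0311 without CVST_Ligation replicate 1. The thalamic markers, of which 7 of 12 were higher with ligation at the unadjusted threshold and none lower, and the midbrain and brainstem markers, of which 13 of 14 tested were higher and none lower, beside 5.47% of all genes higher and 4.18% lower, were high in the same mice, and their part in this result was not tested. Both lists were chosen with earlier results of these data known, so the counts are a description.

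Slc32a1, the GABA and glycine loader of inhibitory neurons, stood at 113, 106 and 79.9 CPM in CVST, at 85, 146 and 95.9 CPM in CVST_Ligation and at 189.8, 179 and 90.04 CPM with 4-PBA. A pair of 4-PBA mice was highest and the third lay within the CVST range. It did not pass, with a log2 difference of 0.62 (SE 0.30) between 4-PBA and CVST. The inhibitory neuron markers, 10 genes led by Gad1, summed to 1411, 1267 and 1287 CPM in CVST, 1021, 1254 and 1283 CPM in CVST_Ligation and 1546, 1394 and 901 CPM with 4-PBA.

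Of the 5 genes of vesicle endocytosis, 3 (Dnm1, Sh3gl2 and Amph) passed the unadjusted threshold as lower with 4-PBA than with ligation alone, where 1.42% of all genes did, and the estimates of all 5 were below 0. Dnm1 (dynamin 1), the GTPase that pinches the vesicle off, stood at 2018, 2028 and 2006 CPM in CVST, at 1819.7, 1796 and 1981 CPM in CVST_Ligation and at 1518, 1299 and 1299.7 CPM with 4-PBA. The 3 CVST mice were almost equal, the ligated mice lay just below them, and the 4-PBA mice lay below all others without overlap. Dnm1 was lower with 4-PBA than with ligation alone by a log2 difference of -0.44 (SE 0.11), with an unadjusted p of 0.00293 and an adjusted p of 1.0 in edgeR, and lower than in CVST by -0.56 (SE 0.11), with an edgeR adjusted p of 0.0635. Between ligation and CVST the log2 difference was -0.11 (SE 0.11) and did not pass.

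Sh3gl2 (endophilin A1), which bends the membrane at the vesicle neck, stood at 369, 296 and 339 CPM in CVST, at 331, 333 and 350.0 CPM in CVST_Ligation and at 249, 213 and 207 CPM with 4-PBA. The ligated mice lay inside the CVST range and the 4-PBA mice below both groups. The log2 difference of 4-PBA from CVST_Ligation was -0.60 (SE 0.13), with an unadjusted p of 0.000851, the smallest of the members in this comparison, and an adjusted p of 1.0 in edgeR, and that from CVST was -0.58 (SE 0.13), with an edgeR adjusted p of 0.0745. Dnm1 and Sh3gl2 passed the unadjusted threshold against both groups in all 9 fits that left out a library. Amph (amphiphysin), which brings dynamin to the neck, stood at 389, 274 and 363 CPM in CVST, at 371, 255 and 376 CPM in CVST_Ligation and at 260.3, 249 and 210.4 CPM with 4-PBA. The 4-PBA mice were lowest, but CVST_Ligation replicate 2 fell among them. The log2 difference from CVST_Ligation was -0.48 (SE 0.19), with an edgeR adjusted p of 1.0, and passed the unadjusted threshold in 5 of 9 such fits, and not without CVST_Ligation replicate 1 or 3 or 4-PBA replicate 2 or 3. From CVST it was -0.51 (SE 0.19), with an edgeR adjusted p of 0.236, and it did not pass without CVST replicate 1 or 3 or 4-PBA replicate 3. Bin1, at 336 ± 26.2 CPM with ligation and 330.1 ± 30.7 CPM with 4-PBA, and Synj1 (synaptojanin 1), at 549 ± 99.7 and 421 ± 85.3 CPM, did not pass.

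Related forms could be set against each other as a share of their summed FPKM, a description with no test. Slc17a6 made up 0.699, 1.23 and 0.667% of Slc17a6 plus Slc17a7 in the CVST mice, 2.53, 24.3 and 3.70% in the ligated mice and 14.6, 13.8 and 11.2% in the 4-PBA mice. Every ligated mouse was above every CVST mouse, with CVST_Ligation replicate 2 the highest and the 4-PBA mice above the remaining ligated ones. Unc13c made up 3.96, 3.48 and 4.77% of Unc13c plus Unc13a in CVST, 6.71, 26.4 and 10.4% in CVST_Ligation and 20.7, 22.5 and 14.4% with 4-PBA, again without overlap between CVST and the ligated mice. Vamp1 made up 18.9, 30.8 and 17.1% of Vamp1 plus Vamp2 in CVST, 28.7, 64.3 and 28.1% in CVST_Ligation and 40.7, 38.9 and 44.8% with 4-PBA, so that CVST replicate 2 lay above the ligated replicates 1 and 3 and the 4-PBA mice lay above all CVST mice. Doc2b made up 19.2, 23.3 and 29.9% of Doc2b plus Doc2a in CVST, 50.5, 48.6 and 36.3% in CVST_Ligation and 61.7, 52.8 and 44.4% with 4-PBA. For Doc2b, too, no ligated mouse fell into the CVST range. The mean shares of Cplx3 in Cplx3 plus Cplx2 and of Sv2b in Sv2b plus Sv2a went the other way. They were 7.69 and 44.3% in CVST, 4.23 and 39.6% in CVST_Ligation and 2.47 and 28.7% with 4-PBA. The share of Syt2 in Syt2 plus Syt1 overlapped between CVST and CVST_Ligation.

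**Figure D5:**
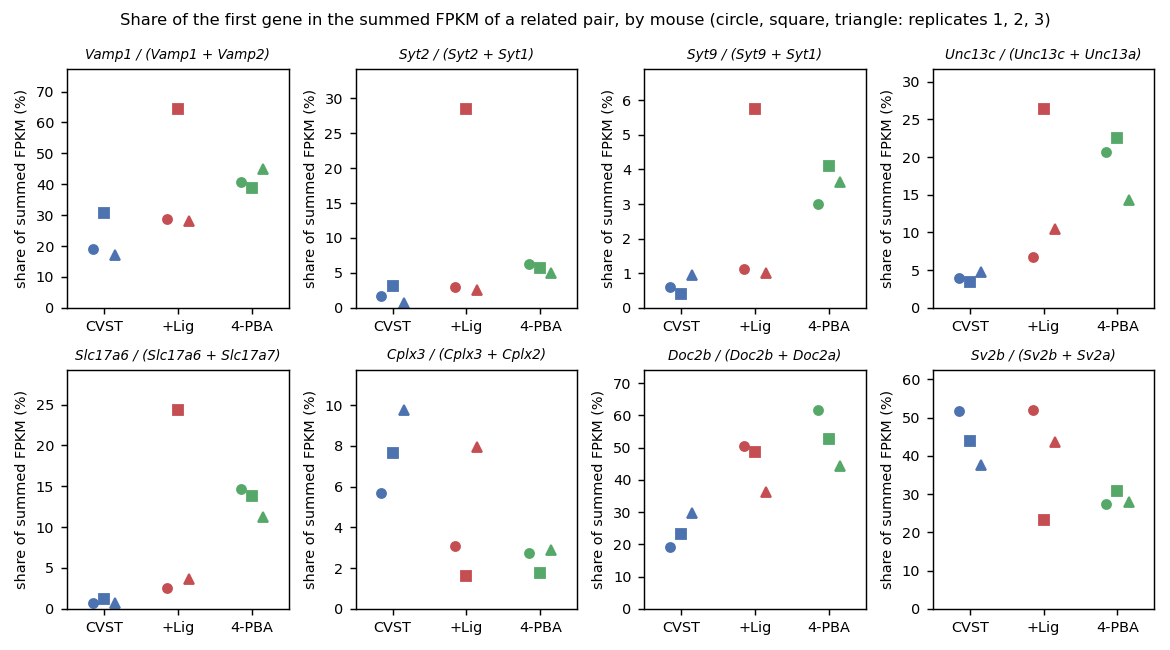
Share of the first gene in the summed FPKM of each of 8 related pairs (vertical axes in percent, starting at 0), with 1 point per mouse. Slc17a6 made up 0.667 to 1.23% of its pair in CVST and 2.53 to 24.3% in the ligated mice without 4-PBA, and Unc13c, Syt9 and Doc2b were likewise above CVST in every ligated mouse. The mean shares of Cplx3 and Sv2b fell from 7.69 and 44.3% in CVST to 2.47 and 28.7% with 4-PBA.

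Beyond the 46 members, 54 other presynaptic genes were listed, of which 53 were in the table and 52 could be tested. For ligation against CVST 4 of the 52 (7.69%) passed the unadjusted threshold, against 9.64% of all genes, and for 4-PBA against CVST_Ligation 2 (3.85%) did, against 3.23%, so that both shares were near the background. In the latter comparison the direction was nevertheless mostly downward, as it was for 40 of the 46 members. The estimate was below 0 for 41 of the 52, beside 53% of all genes, with a median of -0.18. The groups did not overlap for 6, all lower, beside 4.22% of all genes lower. For 4-PBA against CVST 12 (23.1%) passed, against 15.4%. None passed the adjusted threshold in edgeR, whereas DESeq2 passed 0, 0 and 6, beside 1.8, 0.15 and 5.82% of all genes. In the first comparison Ppfia4, an active zone scaffold of the liprin family, and Sncg (gamma-synuclein) were higher by 0.79 and 2.33 on the log2 scale, and Syt6 and Napa, a partner of Nsf, were lower, at -1.11 and -0.31. In the second, Napg, a relative of Napa, was at -0.32 and Stxbp5l, a relative of tomosyn, was the other gene that was lower. In fits that left out a library, Ppfia4 was at 0.33 without CVST_Ligation replicate 2 and Sncg at 1.51, and Syt6 was at -0.60 without CVST replicate 1. The calls for Ppfia4, Sncg, Syt6 and Napa passed in 8, 4, 6 and 7 of the 9 fits, and those for Napg and Stxbp5l in 7 and 3.

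Slc17a7 (VGLUT1), the cortical glutamate loader, stood at 1761, 1419.8 and 1974 CPM in CVST, at 1433, 419 and 1406 CPM in CVST_Ligation and at 519.8, 567 and 732 CPM with 4-PBA. The 4-PBA mice lay below all CVST mice, and CVST_Ligation replicate 2 lay below the 4-PBA mice. The log2 difference of 4-PBA from CVST was -1.50 (SE 0.39), opposite in direction to that of Slc17a6, with an adjusted p of 0.122 in edgeR. Lower in this comparison were also Atp6v1g2, a subunit of the proton pump that powers loading, at -0.71, Syt12 at -0.996, Syt6 at -1.37 and Ppfia3 at -0.50. Without CVST replicate 1 Syt12 was at -0.65 and still passed, whereas Syt6 was at -0.84 and did not, and Ppfia3 did not pass without 4-PBA replicate 3. Higher were Vat1, at 1.22, and Sncg, at 4.38. Sncg was at 13, 229 and 20.2 CPM in the 4-PBA mice and at 2.63, 3.77 and 6.24 CPM in CVST, so that its mean was carried by 4-PBA replicate 2, without which the log2 difference was 1.98.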

How the data were processed

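Brain RNA of 9 mice, 3 per group, was sequenced by the authors on a NovaSeq X Plus after TRIzol extraction. The deposited count table holds raw read counts per gene, and a second deposited table holds FPKM, which the methods call TPM; gene lengths could be worked back for 17446 genes. The submitters' processing notes name fastp, HISAT2, StringTie and RSEM without versions and the builds mm10 and GRCm38. The methods name RSEM for transcript abundance, and the program behind the raw counts and the annotation were not given in the sources used here. All 20731 genes entered, filterByExpr kept 14746 including all 46 members, and edgeR 4.0.16 (R 4.3.3; TMM, glmQLFit, glmQLFTest) was fitted to the 3 groups together with Benjamini-Hochberg adjustment over all genes tested; the common biological coefficient of variation was 0.287. The script was tested on simulated data. DESeq2 1.42.0, limma 3.58.1 on log2(FPKM + 1) and log2(FPKM + 0.1), other scalings and filters, a replicate block and leaving out each library were alternatives. Library totals were 18100739 to 25091498 counts, and the floor of 3 counts covers counting error only.

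The labels do not say what a replicate is beyond its number, and the methods give 3 mice per group. An exact permutation test of 3 against 3 cannot go below 0.1 and was not used. Members named with values by mouse were those with an unadjusted p below 0.05 in a comparison of this fit, plus the highest and lowest member. Values by mouse of Slc32a1, Bsn, Pclo, Sv2c and Syt17 were added after their values were seen. Of the other presynaptic genes, up to 10 with the smallest p were given. The members and the lists were chosen with earlier results of these data known. Promoter windows came from RefSeq (GRCm38.p6). The design foresaw TPM for levels, and FPKM were used.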

Additional observations from a re-analysis of the deposited data

How the results depend on the processing

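Members past the unadjusted threshold numbered 5 to 10 for ligation against CVST, 4 to 8 for 4-PBA against CVST_Ligation and 12 to 19 for 4-PBA against CVST over the alternatives that kept all libraries, where the counts above were 7, 6 and 14. In the same fits 8.22 to 12%, 2.69 to 3.87% and 13.8 to 17.9% of all genes passed. Scaling by total counts alone gave 6 for ligation, all higher, and Snap25 no longer passed, and a fit of CVST and CVST_Ligation alone gave 5, all higher. Leaving out each library in turn gave 5 to 9, 3 to 17 and 11 to 21, beside 8.07 to 11.1%, 1.72 to 10% and 10.1 to 19.1% of all genes, the count of 17 and the 10% both being without CVST_Ligation replicate 2. Without both libraries that stood apart, an alternative chosen after seeing the data, the counts were 10, 26 and 27, which included 5, 6 and 14 of those above, beside 12.4, 13.7 and 22.1% of all genes, and the Syt2 difference for ligation turned to -0.057. In limma with either pseudocount, Snap25 and Syt2 for ligation, Sv2b and Syn1 for 4-PBA against CVST_Ligation and Sv2b, Cplx2 and Unc13a for 4-PBA against CVST did not pass the unadjusted threshold, nor did Cplx2 and Unc13a with total counts, Syt2 and Syn1 with only the groups compared or Syn1 with the replicate block. Members past the adjusted threshold, none in edgeR, numbered 3, 2 and 10 with DESeq2, beside 1.8, 0.15 and 5.82% of all genes. For ligation they numbered 0 to 1 when each library was left out, beside up to 0.0468% of all genes, and 1 without both, beside 0.549%. For 4-PBA against CVST_Ligation they numbered 0 in all these fits. For 4-PBA against CVST they numbered 2 with every gene of at least 1 count kept (0.642% of all genes), 7 with only the 2 groups compared (1.61%), 1 in limma with either pseudocount (0.59 and 0.909%), 16 without both libraries (6.48%) and 0 to 9 when each was left out, 9 being without CVST_Ligation replicate 2 (3.62%) and 1 each without CVST replicate 3 (1.08%) or CVST_Ligation replicate 1 (0.1%). Replicate numbers did not pair the mice, since correlations of their deviations ran from -0.06 to 0.34, and with the replicate block 10, 8 and 16 members passed the unadjusted threshold, beside 12, 3.53 and 17.9% of all genes, and 0, 0 and 1 the adjusted one, beside up to 0.17% of all genes. The cause of these shifts was not tested. With 3 mice a group, small differences in single members may have been missed.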

Other observations

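Members differed widely in how evenly they were expressed among mice of a group. In CVST the coefficient of variation of CPM ran from 0.552% for Dnm1 and 4.73% for Syn1 to 82.5% for Syt2 and 99.8% for Sv2c. Sv2c, the vesicle glycoprotein of basal ganglia and brainstem neurons, was at 47.3, 15.6 and 4.23 CPM in these mice, while the striatal markers, 12 genes led by Penk, summed to 2009.7, 1530.0 and 1110.5 CPM in the same order. In CVST_Ligation the mice ranked differently for the pair, and Sv2c stood at 22.6, 28.3 and 18.8 CPM and the striatal sum at 258, 313 and 566 CPM. With 4-PBA Sv2c stood at 32.8, 47.2 and 36.8 CPM and the striatal sum at 559.7, 1386 and 294 CPM. In CVST_Ligation Syt4 at 2.17% and Sh3gl2 at 3.12% were the most even, and Syt2 at 118%, Vamp1 at 81.8% and Cplx3 at 80.1% the least. In the 4-PBA group the most even member was Slc17a6 at 1.77% and the least even Syt10 at 51.1%. Syt17, a synaptotagmin relative, spanned 37.1, 32.1 and 80.3 CPM in CVST, 109, 20.7 and 71.5 CPM in CVST_Ligation and 66.3, 48.8 and 40.9 CPM with 4-PBA, with no order by group.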
